A study of Mus musculus with 11 samples.

Results

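The 10 immediate early genes that encode no AP-1 subunit were followed in endothelial cells of mouse bone marrow. They were *Egr1*, *Egr2*, *Nr4a1* and *Myc*, which encode transcription factors, *Ier2* and *Ier3*, which encode small immediate early response proteins, and *Dusp1*, *Zfp36*, *Btg2* and *Socs3*, which encode inhibitors of signalling, of mRNA stability or of proliferation. They were chosen by symbol, through the Entrez gene identifier of each row. All 10 were found among the 27179 rows of the count table, and all 10 passed the filter on low counts, among 11949 genes tested.

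CD31hi EMCNhi endothelial cells, the surface phenotype by which type H capillaries of healthy marrow are known, were sorted by flow cytometry from BALB/c mice of 8 to 10 weeks. The tumour-burdened animals carried 4T1.2 mammary carcinoma cells, a line that spreads from the mammary fat pad to bone, labelled with red fluorescent protein. The paper used intracardiac injection of these cells to study the outgrowth of lesions, and its sequencing methods do not name the route. Fluorescent marrow areas gave the met group (3 libraries), adjacent areas of the same bones without fluorescence gave the non-met group (6 libraries), and age-matched mice without tumours gave the control group (2 libraries). Non-met cells came from tumour-burdened animals and are therefore not a healthy tissue. The labels name no transgene and no treatment for any group. The 11 libraries came from 6 pools, each of 1 to 4 mice, of which 4 were tumour-burdened. Of the tumour-burdened pools, pool 1 was the source of non-met 1 and non-met 5 alone. Met 1 shared pool 2 with non-met 2 and 6, met 2 shared pool 3 with non-met 3, and met 3 shared pool 4 with non-met 4. Libraries of a pool are not separate animals, and *P* values measure the spread between these libraries.

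Total counts ran from 733342 in non-met 4 to 19539761 in control 1. The shallowest library therefore set the weakest limit on a gene without reads, since 3 reads corresponded there to 5.43 CPM (counts scaled to library size). All 12 endothelial markers examined, *Pecam1* and *Emcn* among them, had reads in every library, and their summed level was 9630 to 14134 CPM in control, 10630 to 19078 CPM in non-met and 15073 to 18178 CPM in met libraries. In sorted bulk samples, a lower value cannot tell fewer cells of a type from less RNA per cell.

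Immediate early genes are transcribed within minutes of a stimulus such as a growth factor, cytokine, shear stress or tissue disruption, because the factors that switch them on are already present in the cell. Serum response factor acts through CArG boxes and the CREB family acts through cAMP response elements, and both receive signals from MAP kinases or protein kinase A. Many of the products close the loop, as *Dusp1* removes the phosphates of MAP kinases and *Zfp36* (tristetraprolin) directs AU-rich mRNAs to decay. In endothelium these genes respond to VEGF, thrombin, inflammatory cytokines and flow, and enzymatic dissociation of a tissue is also known to induce them. Here, bones were digested with collagenase at body temperature before the sort in every group. Bones of tumour-burdened mice were also microdissected by fluorescence before the sort, a step that is not described for control bones. The effect of this step on these genes was not tested.

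The promoters below belong to genes whose met libraries all lay under all non-met libraries, and they show where the letters recognised by these factors stand. They were taken from RefSeq (GRCm38.p6) and each holds the 250 bases before the annotated start, 5′ to 3′ on the strand of the gene. Capitals mark a CArG box, TGACGTCA (the cAMP response element) or TGACG (its shorter form, which lies inside TGACGTCA and was searched on both strands, so that the reverse reads as CGTCA).
*Nr4a1*, chr15:101266596-101266845, plus strand: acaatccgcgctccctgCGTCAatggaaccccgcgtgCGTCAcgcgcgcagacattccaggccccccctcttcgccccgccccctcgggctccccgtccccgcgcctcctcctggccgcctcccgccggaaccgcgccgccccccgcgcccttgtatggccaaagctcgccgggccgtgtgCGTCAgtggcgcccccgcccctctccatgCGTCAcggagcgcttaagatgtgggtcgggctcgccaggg
*Dusp1*, chr17:26508473-26508722, minus strand: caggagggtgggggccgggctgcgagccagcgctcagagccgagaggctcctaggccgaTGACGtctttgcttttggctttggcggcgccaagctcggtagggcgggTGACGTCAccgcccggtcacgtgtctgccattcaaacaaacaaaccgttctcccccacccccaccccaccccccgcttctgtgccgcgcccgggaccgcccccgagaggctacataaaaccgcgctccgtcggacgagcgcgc
*Zfp36*, chr7:28379229-28379478, minus strand: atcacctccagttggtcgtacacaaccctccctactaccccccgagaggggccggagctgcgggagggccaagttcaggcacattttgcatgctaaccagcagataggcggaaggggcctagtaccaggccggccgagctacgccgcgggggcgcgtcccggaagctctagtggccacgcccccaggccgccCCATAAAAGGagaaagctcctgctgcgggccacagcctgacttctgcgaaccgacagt

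The *Nr4a1* window held 4 copies of TGACG on the reverse strand. *Dusp1* held 1 TGACGTCA, from 143 to 136 bases before the start, and a further TGACG farther upstream. *Zfp36* held 1 CArG box, from 58 to 49 bases before the start, and no TGACG. Windows of 300 bases (250 before and 50 after the start) were present for 7 of the 10 genes, and *Egr1*, *Myc* and *Ier2* had no entry. *Egr2* had 5 overlapping windows and was counted when any of them held the letters, whereas the shares over all windows count each window alone. The CArG box was found for 2 of the 7 (*Egr2* and *Zfp36*) and in 1.63% of 32851 windows, TGACGTCA for 2 (*Dusp1* and *Btg2*) and in 1.79%, and TGACG for 4 (*Egr2*, *Nr4a1*, *Dusp1* and *Btg2*) and in 20.8%. The EGR letters GCGGGGGCG were found for *Nr4a1*, *Zfp36* and *Socs3* and in 2.91% of windows, and the STAT letters TTCNNNGAA for *Zfp36* and *Socs3* and in 8.3%. These are matches of letters and not measured binding. In the same build *Zfp36* spans chr7:28376784-28379228, *Nr4a1* chr15:101253902-101274795, *Dusp1* chr17:26505591-26508472 and *Ier2* chr8:84661331-84662852, and no other counted row overlaps any of the 10 genes.

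The 10 genes spanned a wide range of levels. Per gene length, over all libraries, *Ier2* stood at the 99.0 percentile of the tested genes, *Zfp36* at 98.9, *Dusp1* at 98.4, *Nr4a1* at 97.4, *Egr1* at 96.2, *Socs3* at 95.8, *Ier3* at 93.7 and *Btg2* at 92.1. *Myc* stood at 73.3 and *Egr2* at 17.0. In controls the median level per length, as RPKM (CPM per kilobase of exon), was highest for *Zfp36* (401) and *Ier2* (393), followed by *Dusp1* (332), *Egr1* (269), *Nr4a1* (224), *Btg2* (178), *Socs3* (108), *Ier3* (40.1), *Myc* (9.75) and *Egr2* (8.98). In met libraries *Ier2* (182 RPKM) and *Ier3* (165 RPKM) had the highest medians and *Zfp36* (120 RPKM) and *Dusp1* (115 RPKM) came next, with ranges that overlapped for all 4. *Btg2* was at 18.05 RPKM in met.

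**Figure D1:**
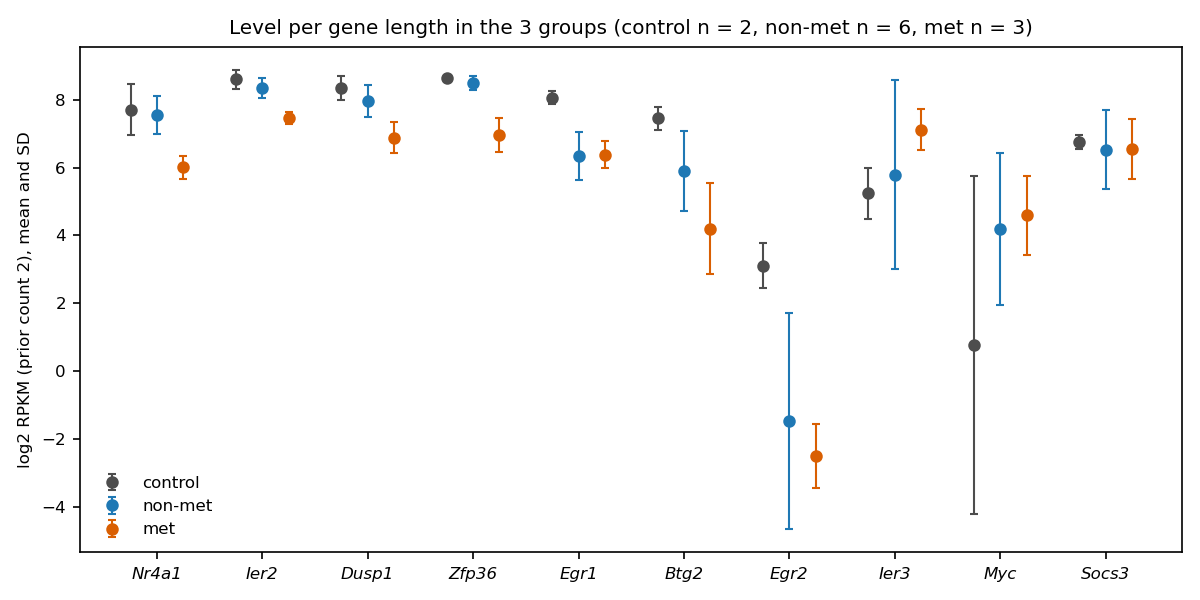
Level per gene length of the 10 genes, as log2 RPKM with a prior count of 2. Points are group means and bars the SD over control (n = 2), non-met (n = 6) and met (n = 3) libraries; *Ier2*, *Zfp36* and *Dusp1* were the highest of the 10 over all libraries and *Egr2* the lowest, with a non-met SD of 3.19.

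Met was first compared with non-met, the adjacent tumour-free area of the same bones. *Nr4a1*, *Ier2*, *Dusp1* and *Zfp36* were lower in all 3 met libraries than in any of the 6 non-met libraries, by 2.91-fold, 1.85-fold, 2.14-fold and 2.91-fold. *Btg2* had the largest difference of means among the 10 (3.27-fold lower) but its groups overlapped. *Egr1* and *Socs3* had nearly equal means in both areas, and *Ier3*, *Myc* and *Egr2* varied more among non-met libraries than between the groups. Genes whose met libraries all lay below non-met made up 0.444% of all tested genes, against 4 of these 10. The 10 genes were not matched to all tested genes in level or spread. The median SD of log2 CPM over non-met libraries was 0.93 for the 10 and 2.72 for all.

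*Zfp36*, the mRNA decay factor, was measured at 211, 157 and 319 CPM in met 1 to 3. The non-met libraries ran from 499 CPM over a median of 647 CPM to 770 CPM, and the controls had 725 and 692 CPM. The met libraries were the 3 lowest of the 11, while non-met and control overlapped. The mean log2 CPM was 7.78 ± 0.51 (SD, n = 3) for met libraries against 9.32 ± 0.21 (SD, n = 6) for non-met, a difference of −1.54 (*P* = 0.0119, exact two-sided permutation test, the smallest that 84 splits allow). The voomLmFit log2 fold change was −1.40 (SE 0.40), with an adjusted *P* of 0.207, and that of DESeq2 was −1.66, with an adjusted *P* of 0.000311.

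*Nr4a1* encodes an orphan nuclear receptor that needs no ligand to act. Its level was 144, 209 and 135 CPM in met, and 275 to 708 CPM in non-met with a median of 517 CPM. The controls had 753 and 358 CPM, the first above and the second within the non-met range, and all met libraries were below the other 8. The mean log2 CPM was 7.32 ± 0.34 (SD, n = 3) for met libraries against 8.86 ± 0.57 (SD, n = 6) for non-met, and the difference of −1.54 was larger than the spread between libraries (*P* = 0.0119, exact two-sided permutation test). Its log2 fold change was −1.88 (SE 0.62, adjusted *P* = 0.379) in voomLmFit and −1.73 (adjusted *P* = 0.00291) in DESeq2.

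*Ier2*, a nuclear protein induced by growth factors, was measured at 233, 278 and 299 CPM in met and at 342 to 644 CPM in non-met, with a median of 511 CPM. The controls were at 678 and 518 CPM. All met libraries were again below the rest, and the lowest non-met library was non-met 6. The difference of mean log2 CPM was −0.88 (8.07 ± 0.19 against 8.95 ± 0.31, SD, n = 3 and 6, *P* = 0.0119, exact two-sided permutation test). The adjusted *P* was 0.609 in voomLmFit and 0.0808 in DESeq2.

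*Dusp1*, the MAP kinase phosphatase, was measured at 223, 168 and 318 CPM in met and at 333 to 725 CPM in non-met, with a median of 457 CPM, and at 756 and 534 CPM in controls. The gap between met 3 and non-met 4 was narrow, and the groups stayed apart in 9 of 17 alternative ways of scaling, filtering or leaving out a library, against 17 of 17 for *Zfp36*, *Nr4a1* and *Ier2*. The difference of mean log2 CPM was −1.10 (7.84 ± 0.46 against 8.93 ± 0.47, SD, n = 3 and 6, *P* = 0.0238, exact two-sided permutation test). The adjusted *P* was 0.679 in voomLmFit and 0.0578 in DESeq2.

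**Figure D2:**
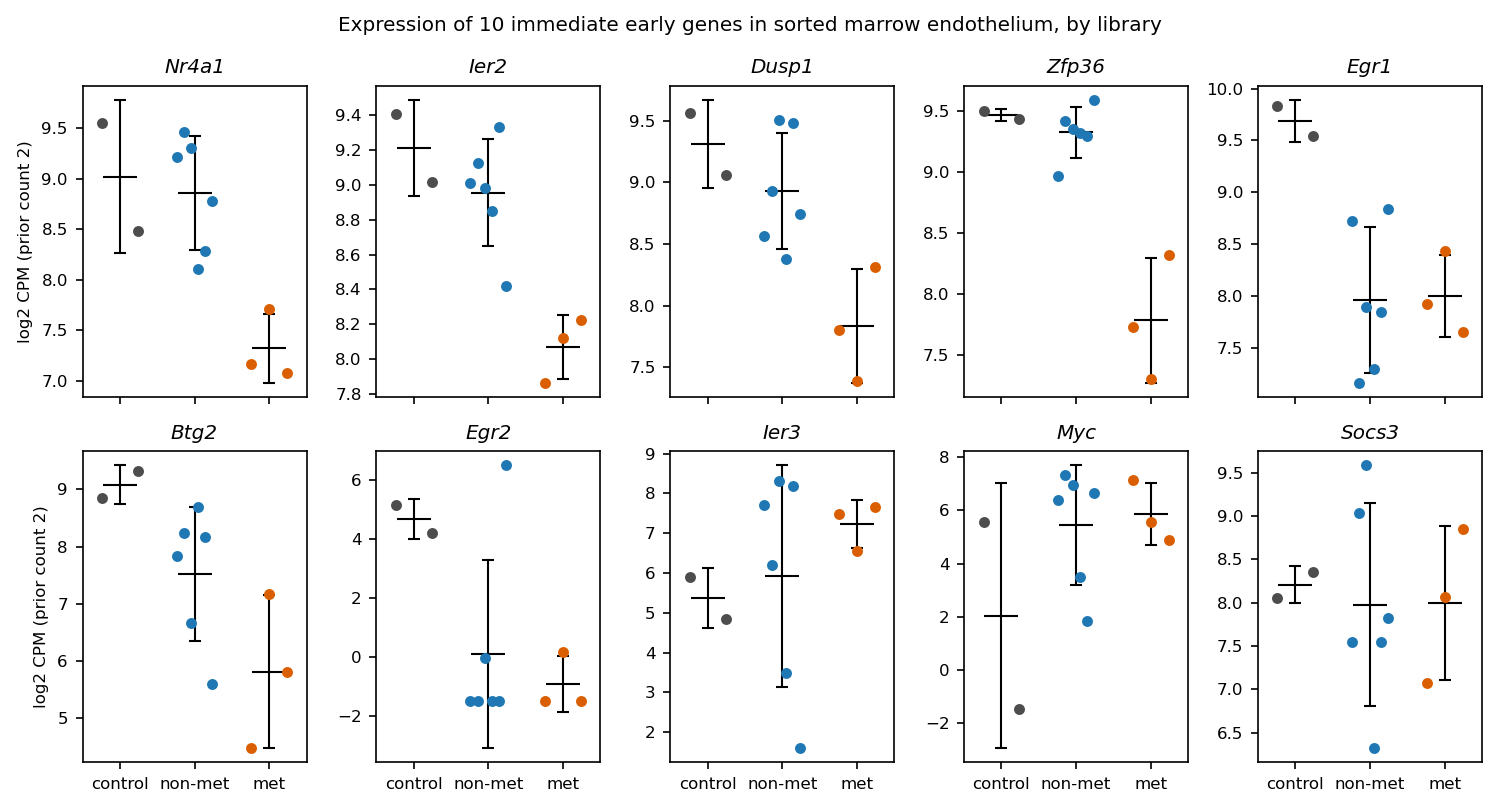
Level of each gene in every library, as log2 CPM with a prior count of 2, in control, non-met and met. Each dot is 1 library, the horizontal line is the group mean and the bar is the SD; the scale differs between panels, and for *Nr4a1*, *Ier2*, *Dusp1* and *Zfp36* the 3 met dots lie below the 6 non-met dots.

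No member passed the threshold of 0.05 on the adjusted *P* in voomLmFit for met against non-met, where 0.418% of all tested genes passed. At an unadjusted *P* under 0.05 there were 4 (*Zfp36*, *Nr4a1*, *Ier2* and *Dusp1*), against 7.24% of all genes. No member passed in limma-trend, where 0.0167% of all genes did. DESeq2 called 2 (*Zfp36* and *Nr4a1*, both lower in met), where 3.23% of all genes passed. On simulated counts, voomLmFit and DESeq2 both gave more false calls than the threshold of 0.05 allows and limma-trend did not, so calls made by those 2 alone are weakly supported. The median difference of the 10 genes was −0.95 on the log2 scale and that of all tested genes was 0.26.

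Met and non-met areas of the same mice could be set side by side in 3 pools. *Zfp36* was lower in met in each, by −1.78, −2.06 and −0.999 on the log2 scale in pools 2, 3 and 4. For *Nr4a1* the differences were −1.96, −1.59 and −1.03, and for *Ier2* they were −0.91, −0.86 and −0.62. The direction within pools follows from the lack of overlap between the groups and is no further evidence, and the pools add the size of each difference. *Dusp1* was lower by 1.03 and 2.11 in pools 2 and 3, and in pool 4 the areas were nearly equal, at 318 CPM in met and 333 CPM in non-met. The 2 non-met libraries of 1 pool, in which no difference of area was sampled, differed in *Zfp36* by 0.34 in pool 1 and 0.17 in pool 2, in *Nr4a1* by 0.93 and 0.68, in *Ier2* by 0.32 and 0.71 and in *Dusp1* by 0.92 and 0.19. With mouse pool as a block in voomLmFit, which pairs the areas, no member passed (adjusted *P* = 1.00 for each), where 0.285% of all genes did, and 3 (*Zfp36*, *Nr4a1* and *Dusp1*) had an unadjusted *P* under 0.05, against 2.91% of all genes.

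The other genes had no common direction over the pools. *Btg2* was lower in met by 2.43 and 2.89 in pools 2 and 4 and higher by 0.50 in pool 3, and the 2 non-met libraries of pool 2 themselves differed by 2.64. *Socs3* was lower in met by 1.36 and 1.52 in pools 2 and 3 and higher by 2.53 in pool 4. *Egr1* differed by −0.08, 0.54 and 0.35. *Ier3* was higher in met by 3.60 and 4.18 in pools 2 and 4 and lower by 1.78 in pool 3. Of the 10 genes, 8, 7 and 5 were lower in met in pools 2, 3 and 4, with median differences of −1.19, −1.47 and −0.032 where all tested genes had −0.23, 0 and 0.20, so that pool 4 showed almost no shift of the 10 together. In pool 4 *Egr2* had no reads in either area.

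**Figure D3:**
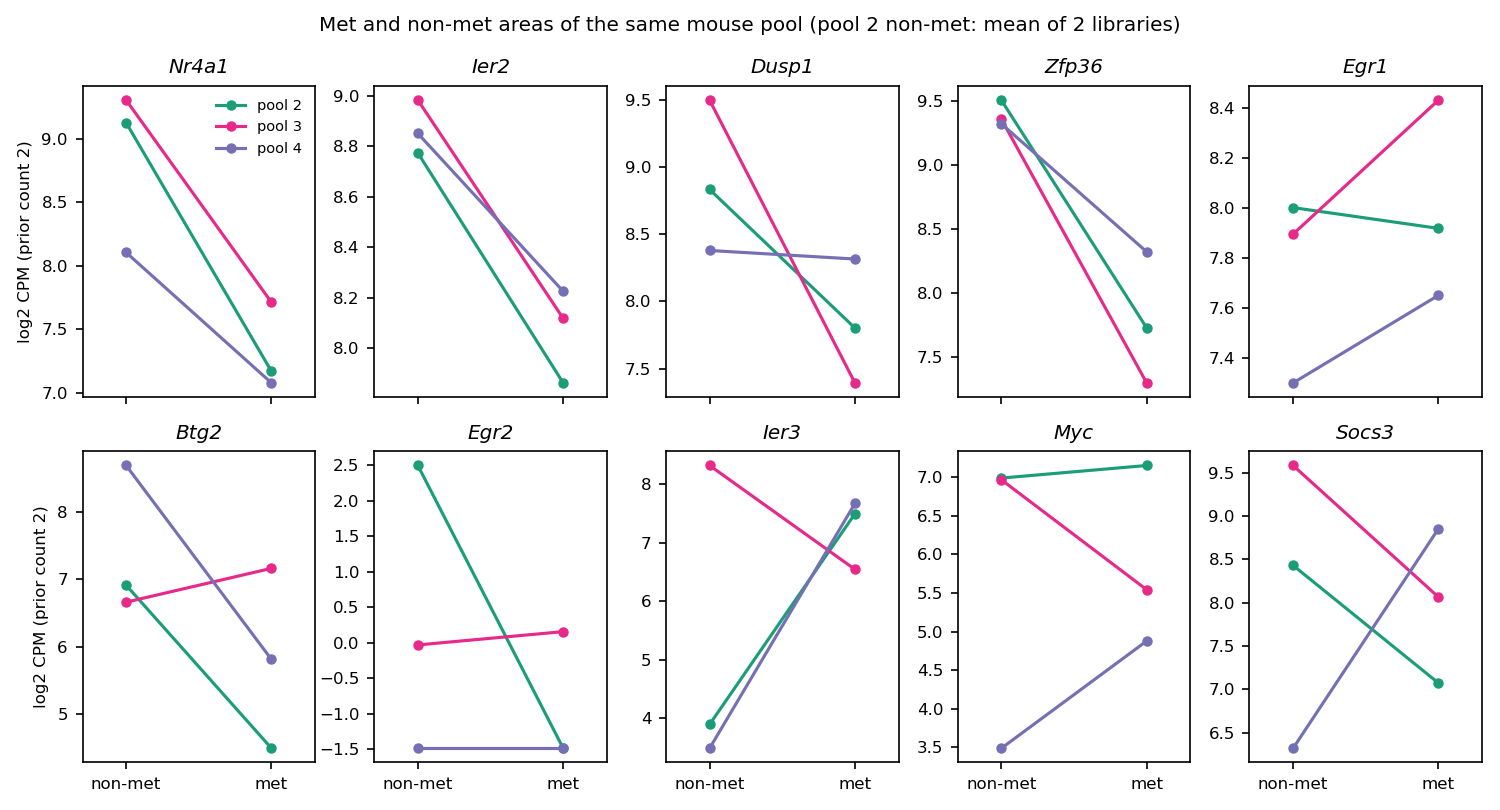
Log2 CPM (prior count 2) of each gene in the non-met and met areas of mouse pools 2, 3 and 4. Each line joins the areas of 1 pool, with the mean of 2 non-met libraries in pool 2; the lines of *Nr4a1*, *Ier2* and *Zfp36* all go down, as groups without overlap must, *Dusp1* is nearly level in pool 4, and the remaining panels hold lines of unlike direction.

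Both areas were then compared with healthy marrow. *Egr1*, which encodes a zinc finger factor at the head of the growth factor response, was lower in both areas of tumour-burdened mice and was called by voomLmFit alone of the 4 tests run. It was measured at 909 and 745 CPM in the controls, at 242, 345 and 201 CPM in met, and from 143 CPM over a median of 234 CPM to 458 CPM in non-met. Every library of tumour-burdened mice was below both controls, and met and non-met overlapped throughout. The mean log2 CPM was 9.69 ± 0.20 (SD, n = 2) in control, 7.96 ± 0.70 (SD, n = 6) in non-met and 8.002 ± 0.40 (SD, n = 3) in met. The voomLmFit log2 fold change was −1.93 (SE 0.36, adjusted *P* = 0.0105) for non-met and −1.87 (SE 0.35, adjusted *P* = 0.00376) for met against control, and these share the control libraries. The voomLmFit call for non-met was lost with the libraries of a pool and group summed and without non-met 2. That for met was lost without control 1, met 2 or met 3. By exact two-sided permutation the difference of −1.72 for non-met had *P* = 0.0357, the smallest that 28 splits allow, and for met no *P* under 0.1 was possible with 10 splits. In limma-trend and DESeq2 the adjusted *P* was 0.548 and 0.255 for non-met, and 0.876 and 0.21 for met.

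*Btg2*, an antiproliferative gene that recruits the mRNA deadenylation machinery, was measured at 459 and 638 CPM in the controls. Non-met libraries ran from 48.0 to 414 CPM with a median of 257 CPM, and met libraries had 22.0, 143 and 55.6 CPM. All libraries of tumour-burdened mice were below the controls, and the met and non-met ranges overlapped. The difference of mean log2 CPM was −1.55 for non-met against control (*P* = 0.107, exact two-sided permutation test), −3.26 for met against control and −1.71 for met against non-met (*P* = 0.0952, exact two-sided permutation test). For met against control the voomLmFit adjusted *P* was 0.145 and that of DESeq2 was 0.037.

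The log2 fold change of *Zfp36* for met against control was −1.61 (SE 0.38) in voomLmFit, with an adjusted *P* of 0.0303 there, 0.0127 in DESeq2, 0.437 in limma-trend and 0.886 in the quasi-likelihood test. The voomLmFit call was lost with the libraries of a pool and group summed (adjusted *P* = 0.104), and without control 1 (adjusted *P* = 0.116), non-met 5 (0.052) or any 1 of the met libraries (0.0795, 0.222 and 0.16 without met 1 to 3). For non-met against control its log2 fold change was −0.22 (adjusted *P* = 0.421, voomLmFit). *Nr4a1*, *Ier2* and *Dusp1* were likewise below both controls in every met library, with voomLmFit adjusted *P* of 0.0707, 0.0604 and 0.0569, and DESeq2 called *Nr4a1* (adjusted *P* = 0.0418). Their non-met values overlapped the controls, with log2 CPM differences of −0.16, −0.26 and −0.38. The reads of *Zfp36* and *Egr1* in 1 library can be set against each other without any scaling. *Zfp36* had 0.798 and 0.929 reads for each read of *Egr1* in the controls, 1.18 to 4.78 in non-met and 0.874, 0.454 and 1.59 in met. Every non-met ratio was above both control ratios, and the met ratios ran from below to above the control ratios. This pair was picked after its values were seen, and the ratio was not tested.

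In the counts over the 10 genes, voomLmFit called 2 for met against control (*Egr1* and *Zfp36*, both lower), where 1.2% of all tested genes passed, and 1 for non-met against control (*Egr1*), where 0.636% passed. DESeq2 called 3 for met against control (*Nr4a1*, *Zfp36* and *Btg2*), with 2.41% of all genes, and 0 for non-met against control, with 2.4%. Limma-trend called 0 in both, with 0.0753% and 0.067% of all genes. For met against control 7 genes were lower without overlap, where 12.3% of all genes were, and 1 was higher (*Ier3*), where 8.43% were. For non-met against control 2 were lower without overlap (*Egr1* and *Btg2*), where 5.03% were. The median difference of the 10 genes was −1.58 for met and −0.24 for non-met against control, and that of all tested genes was −0.35 and −0.79.

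**Figure D4:**
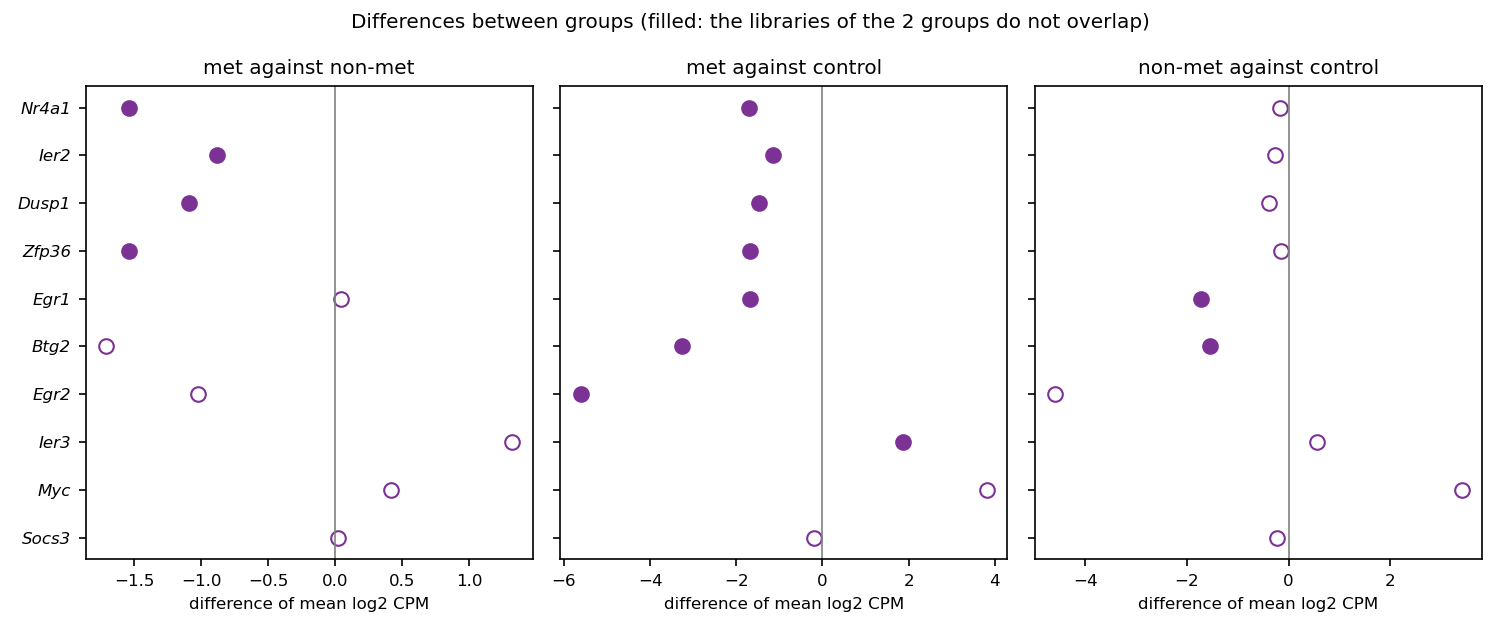
Difference of mean log2 CPM (prior count 2) for each gene in the 3 comparisons. Filled circles mark genes whose libraries do not overlap between the groups: 4 for met against non-met, 8 for met against control and 2 for non-met against control; the last pair of comparisons shares the control libraries.

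*Egr2*, a zinc finger factor related to *Egr1*, was near the limit of detection in tumour-burdened mice. The controls had 35.2 and 18.05 CPM (720 and 102 reads). The met libraries had 0, 0.758 and 0 CPM, and of the 6 non-met libraries 4 had no read, non-met 3 had 0.622 CPM and non-met 6 had 88.8 CPM (100 reads). This library of pool 2 was thus the highest of all 11 while the other non-met library of that pool had no read. The difference between met and control had an adjusted *P* of 0.179 in voomLmFit.

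*Ier3*, a regulator of survival and of NF-kB signalling, was measured at 59.3 and 28.1 CPM in the controls and at 180, 93.0 and 204 CPM in met, above both controls in every met library. Non-met libraries ran from 2.67 CPM (3 reads, non-met 6) over a median of 142 CPM to 319 CPM (non-met 3), and enclosed both other groups. The log2 fold change for met against control was 1.86 (SE 1.21, adjusted *P* = 0.53, voomLmFit). *Myc*, the growth factor responsive regulator of cell growth, had 46.8 CPM (957 reads) in control 1 and no read in control 2, where 3 reads would be 0.531 CPM. It had 142, 46.2 and 29.0 CPM in met and 3.18 to 158 CPM in non-met, with a median of 92.6 CPM. The groups overlapped in all 3 comparisons, and the voomLmFit log2 fold change of 7.30 for met against control was −0.044 without control 2.

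*Socs3*, the feedback inhibitor of cytokine receptors including that of G-CSF, was measured at 266 and 327 CPM in the controls, at 134, 267 and 462 CPM in met, and from 79.6 CPM over a median of 207 CPM to 766 CPM in non-met. The 3 groups overlapped, and the mean log2 CPM was 8.20 ± 0.21 (SD, n = 2), 7.997 ± 0.89 (SD, n = 3) and 7.98 ± 1.17 (SD, n = 6). The voomLmFit log2 fold change for met against non-met was 0.0041 with an SE of 0.56 (adjusted *P* = 0.999). Its sign changed with the scaling and with the library left out.

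The spread between libraries differed among the 10 genes. Among the 6 non-met libraries the SD of log2 CPM was 0.21 for *Zfp36*, 0.31 for *Ier2*, 0.47 for *Dusp1* and 0.57 for *Nr4a1*, and 2.24 for *Myc*, 2.79 for *Ier3* and 3.19 for *Egr2*. The median over the 10 genes was 0.93 and that over all tested genes was 2.72. The summed level of the 10 genes was 4687 and 3859 CPM in the controls, 2381 to 4066 CPM in non-met and 1531, 1707 and 2022 CPM in met. Control 1 was the highest library for 4 of the 10 genes and no met library was the highest for any.

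Transcripts of other marrow cells differed between the same groups, although CD45-positive and Ter-119-positive cells had been gated out. The 10 granulocyte markers summed to 397 to 5117 CPM in non-met, 80.2 and 359 CPM in control and 203, 68.8 and 35.4 CPM in met, where 5 to 7 of the 10 had no read. The controls, with fewer granulocyte transcripts than any non-met library, had *Zfp36*, *Nr4a1*, *Ier2* and *Dusp1* above every met library. Non-met 3, with 397 CPM of granulocyte markers, had 655 CPM of *Zfp36*, and non-met 6, with 5117 CPM, had 770 CPM. The part of granulocyte transcripts in the difference between met and non-met was not tested. The 6 mural and stromal markers summed to 3761 and 10110 CPM in the controls, 944 to 3360 CPM in non-met and 488 to 2582 CPM in met, and so were higher in the controls as *Egr1* was. Most of the sum was *Cxcl12* (mean log2 CPM of 12.37 in control, against 8.94 for *Lepr*, the next). For met against control 5 of the 6 were lower in mean and 1 was higher, where 59.7% of all tested genes were lower. The median difference of the 6 was −1.79. Of the 6, 3 were lower without overlap, where 12.3% of all tested genes were. The difference of mean log2 CPM was −3.03 for *Cxcl12*, −0.25 for *Col1a1* and 2.05 for *Acta2*, the 1 that was higher. The part of these markers in the *Egr1* difference was not tested. Mitochondrial transcripts made up 5.4% and 6.2% of counts in the controls, 6.72% to 17.8% in non-met and 4.33% to 9.56% in met, and their relation to these genes was not tested.

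**Figure D5:**
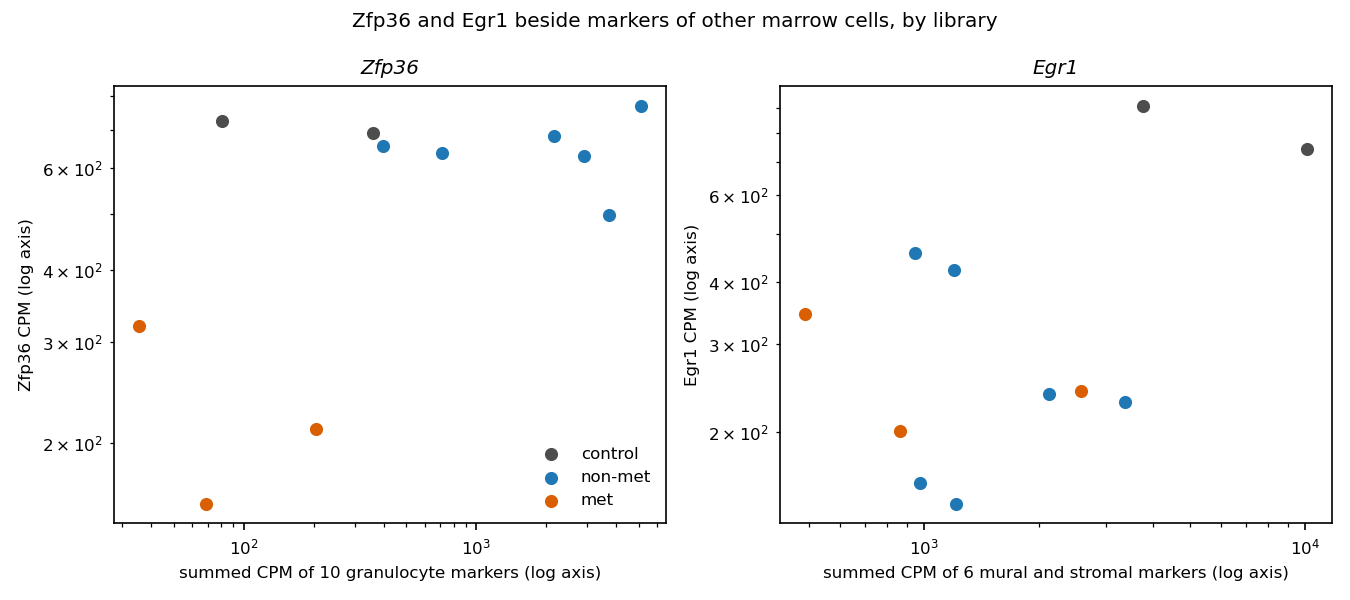
*Zfp36* against the summed CPM of 10 granulocyte markers, and *Egr1* against that of 6 mural and stromal markers, both axes logarithmic, with 1 dot for each library. The controls (grey) combine *Zfp36* at 692 and 725 CPM with at most 359 CPM of granulocyte markers, and *Egr1* at 909 and 745 CPM with the highest mural and stromal sums.

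Other genes of the early response were examined as a list of 58, chosen by their roles, of which 54 were tested. None passed in voomLmFit or limma-trend in any of the 3 comparisons. In met against non-met 33 of the 54 (61.1%) were lower in mean and 21 higher, with a median difference of −0.26, and 44.0% of all tested genes were lower, with a median of 0.26. Of the 54, 1 was without overlap in met against non-met, which is near the 1.98% of all tested genes that did not overlap in either direction. It was *Klf4*, a flow-responsive endothelial factor named after its values were seen, at 330 to 772 CPM against 797 to 1634 CPM (difference −1.19). Its adjusted *P* was 0.198 in voomLmFit and 0.013 in DESeq2.

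Of the 7 AP-1 genes 6 were tested, and for met against non-met voomLmFit called 3 (*Fos*, *Jun* and *Junb*, lower in met, where 0.418% of all genes passed), DESeq2 called *Fos*, *Fosb* and *Junb* (3.23% of all genes), and limma-trend and the quasi-likelihood test called none. The mean log2 CPM of all 6 was lower in met, but *Fosl2* had a log2 fold change of 0.63 in voomLmFit. The 7 heat shock genes, which respond to handling stress, summed to 929 to 1436 CPM in met, 461 to 1613 CPM in non-met and 852 and 1454 CPM in control, and none passed in voomLmFit or limma-trend in any comparison.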

How the data were processed

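RNA of CD31hi EMCNhi endothelial cells was amplified by a low-input full-length protocol (SMART-Seq v4). Per the methods and the labels, reads were aligned to mm10 with Rsubread and counted per Entrez gene with featureCounts, and a library with poor mapping was removed by the authors. The deposited values are raw counts, and whether strand was used is not stated. No member overlaps another counted row. The 11 single-library tables were identical to the series table.

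Symbols came from RefSeq (25275 rows) and GENCODE (18 rows). Rows without a name (1886), ribosomal RNA (35) and predicted genes (1794) were left out, with 1.94% to 15.7% of a library's counts, which may differ from the rows the authors removed. Genes were kept with filterByExpr (minimum count 10, total 15) and scaled by TMM. The main fit was voomLmFit (edgeR 4.0.16, limma 3.58.1) with sample weights of 0.43 to 1.96 over 3 groups, with Benjamini-Hochberg adjustment over 11949 genes. DESeq2 1.42.0, limma-trend, the edgeR quasi-likelihood test, other scalings and filters, mouse pool as a block and each library left out were alternatives. DESeq2 gave no adjusted *P* for some genes and its percentages are over 10102. Log2 CPM used a prior count of 2. The permutation tests of the 10 members (30 in 3 comparisons) were not adjusted. On simulated data with known changes, voomLmFit, DESeq2 and, to a lesser degree, the quasi-likelihood test gave more false calls than the threshold allows, and limma-trend did not but recovered fewer changed genes. Adjusted *P* values of the former were therefore too small in the simulated data and may be too small here. The simulation scored met against non-met alone and held no mouse pools, so the size of the error in these libraries is not known.

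Pools pair libraries of the same animals by the labels. The consensus correlation within pools was −0.04, so same-pool libraries did not deviate together on average over genes. All 10 members were named, and list genes only where called by voomLmFit or limma-trend. *Klf4*, *Fosb*, *Fosl2*, *Lepr*, *Col1a1* and *Acta2* were exceptions chosen after their values were seen. The members and lists were chosen with earlier results of these data known.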

Additional observations from a re-analysis of the deposited data

Results flagged for a closer look

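Among the 6 non-met libraries, *Egr2* in non-met 6 stood far from the others, at 6.48 log2 CPM (88.8 CPM). Its gap to the next library was 0.817 of the whole range of the group, above the critical value of Dixon’s test for 6 samples. The 10 genes were examined in this way in the non-met group, and chance alone marks about 1 in 20 such groups. As 4 of the 6 values were equal, with no read, neither the critical value nor that rate strictly applies here, and the value stands as a description.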

How the results depend on the processing

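For met against non-met, the number of members called was 2 with DESeq2 and 0 in the main fit and in every other alternative. For met against control it was 2 in the main fit, 0 with the quasi-likelihood test and with limma-trend, 5 without sample weights, with RLE scaling, with library size only and without the low-count filter (where 2.29%, 1.17%, 1.14% and 2.69% of all genes were called, against 1.2% in the main fit), 3 with only the 2 groups in the fit (0.767% of all genes), 1 with the libraries of a pool and group summed (0.464%), and from 0 to 5 when 1 library was left out (0 without control 1, met 2 or met 3, where 0.491%, 0.777% and 0.309% of all genes were called, 1 without met 1 or non-met 5, with 0.846% and 0.694%, 4 without non-met 3, with 1.39%, and 5 without control 2, with 2.05%). For non-met against control it was 1 in the main fit, 0 with the quasi-likelihood test, DESeq2, limma-trend and summed pools, and from 0 to 1 with 1 library left out (0 without non-met 2). In the main fit 2 members were without overlap in non-met against control, where 6.29% of all genes were. With RLE scaling it was 1 member, where 6.21% of all genes were. With pools summed there were 3 (*Btg2*, *Egr1* and *Egr2*). That setting has fewer libraries in a group, and the share of all genes was not computed for it. With 1 library left out there were 2 to 5. The count was 5 without control 2 and 4 without non-met 6, where 14.6% and 8.87% of all genes did not overlap. *Egr1* was called in 16 of 22 alternatives for met and 17 of 22 for non-met against control, with log2 fold changes from −2.10 to −1.56 and from −2.19 to −1.49, and *Zfp36* in 14 of 22 for met against control (−2.04 to −1.33), not with limma-trend, quasi-likelihood or pools summed, nor without control 1, met 1, met 2, met 3 or non-met 5.

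With mouse pool as a fixed block, which pairs met and non-met, 0 members were called (*Zfp36* −1.64, *Nr4a1* −1.63, *Ier2* −0.87, *Dusp1* −1.46) and *Socs3* turned to −1.27. As a random block the members called stayed at 0, 2 and 1, the same genes, where 0.435%, 1.19% and 0.77% of all genes were called. Controls have pools of their own, so comparisons with control had no fixed-block fit.

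Relative to TMM, RLE scaling moved every met against non-met difference by −0.16, and library size only moved met and non-met against control by −0.18 and −0.20. Signs turned only for differences that were not called in the main fit, and the cause was not tested. In met against non-met *Egr1* (0.06) became −0.067 with quasi-likelihood, −0.24 with DESeq2, −0.039 with RLE and −0.31 to 0.35 with 1 library left out. *Socs3* (0.0041) became −0.19, −0.29 and −0.16 in those settings, −0.0032 without the filter, −0.017 with all rows kept, −0.10 with pools summed and −0.73 to 0.38 with 1 library left out. *Myc* (−0.45) became 0.41 with limma-trend and −0.99 to 0.32 with 1 library left out, and *Ier3* (1.43) became −0.046 with DESeq2. In met against control *Socs3* (0.28) became −0.042 with quasi-likelihood, −0.16 with DESeq2, −0.21 with limma-trend and −0.44 to 0.46 with 1 library left out, and *Myc* −0.044 to 8.995 likewise. In non-met against control *Socs3* (0.28) became −0.23 with limma-trend and −0.077 to 0.54 with 1 library left out, *Nr4a1* (−0.21) became 0.035 with pools summed and −0.43 to 0.72 with 1 library left out, and in the same way *Ier2* gave −0.44 to 0.013 and *Ier3* −0.42 to 1.51. *Egr2*, *Ier3* and *Myc* had 0 to 6 reads in some libraries, and values there carry a large counting error; these were not the shallowest libraries alone, as *Egr2* had no read in met 3 (8516567 counts kept) and 100 reads in non-met 6 (1045010).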
